A study of Mus musculus with 8 samples.

Results

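Inflammasomes are cytosolic complexes in which a sensor protein (such as NLRP3 or AIM2) recruits the adaptor ASC and, through it, the protease caspase-1. The active caspase cuts the cytokines IL-1β and IL-18 into their mature forms and cuts gasdermin D, whose freed end opens pores in the plasma membrane, and NINJ1 then ruptures the cell in the lytic death called pyroptosis. NEK7, a mitotic kinase, binds NLRP3 and bridges neighbouring NLRP3 molecules, and caspase-4 of the mouse (also called caspase-11) cuts gasdermin D on its own after it has bound bacterial lipopolysaccharide.

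The genes described here were 10 of the 55335 in the table, taken by symbol: Nek7, Nlrp3, Pycard (which encodes ASC), Casp1, Casp4, Gsdmd, Il1b, Il18, Aim2 and Ninj1. They were chosen by name with earlier results of the same comparison in view, so their differences between the groups are a description and no p is given for them. The RNA came from RAW264.7, a mouse line that resembles macrophages and was raised from a virus-induced tumour, kept for 3 days with either of 2 bone scaffold materials. One was hydroxyapatite doped with magnesium ions (HA/Mg), the other the Trio-Active bone scaffold (TABS), with 4 libraries each, numbered as replicates 5 to 8 in both groups. All libraries came from cells of this 1 line, no genotype or further agent is named, and cells without a scaffold were not analysed here. Nothing in the labels says whether the 4 libraries of a material were separate cultures, so their spread may be technical. The sample titles set the groups. The library names behind them use the letters H for TABS and L for HA/Mg, and a swap of these letters would turn every direction below.

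Values are FPKM, a fragment count divided by gene length and by library total, so levels of different genes can be set side by side. Between 9908 and 10280 genes reached 1 FPKM per library. HA/Mg replicate 6 stood apart from the other HA/Mg libraries: it was the lowest of the 4 for 50.1% of the 10161 genes that entered the fit, against 14.7% to 20.2% for the others. Among the TABS libraries replicate 7 was the lowest for 41.2%, against 16.7% to 24% for the others. Of 9 macrophage markers 8 reached 1 FPKM in at least 1 library, summing to 2147 to 2513 FPKM with TABS and 1816 to 2247 FPKM with HA/Mg, and only the mannose receptor gene Mrc1 did not. Markers of fibroblasts or osteoblasts (7 genes), epithelium, T cells and neutrophils (4 each) summed to at most 0.0507, 0.022, 0.0235 and 0.112 FPKM, and Bglap, Epcam, Cd3e and Mpo were at 0 throughout. Of 6 osteoclast markers, 2 (Mmp9 and Dcstamp) reached 1 FPKM and Calcr was at 0 throughout, with sums of 131.2 to 161.8 FPKM with TABS and 87.3 to 123.1 FPKM with HA/Mg that were almost all Mmp9. The part of these markers in the values below was not tested. In bulk RNA, fewer cells that express a gene and less RNA per cell cannot be told apart.

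The promoter windows of 3 members are printed. Nek7 was taken for its split among TABS libraries, Il1b for the largest ratio in favour of TABS, and Pycard for its near absence. No level or difference below was computed from the windows, and their part in these values was not tested. They are 300-base windows from RefSeq on GRCm38.p6, written 5′ to 3′ on the gene's strand around a start annotated by RefSeq, and the capitals mark CpG dinucleotides. The Nek7 window lies inside the gene as GENCODE bounds it, whose outermost start is at 138620141.
Nek7, chr1:138619708-138620007, minus strand: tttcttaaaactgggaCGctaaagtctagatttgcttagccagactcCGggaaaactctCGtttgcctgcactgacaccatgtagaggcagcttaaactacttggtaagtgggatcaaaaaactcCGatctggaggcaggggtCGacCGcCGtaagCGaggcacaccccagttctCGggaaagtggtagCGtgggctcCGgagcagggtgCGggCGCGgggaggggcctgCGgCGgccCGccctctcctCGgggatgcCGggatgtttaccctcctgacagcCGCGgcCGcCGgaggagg
Il1b, chr2:129371090-129371389, minus strand: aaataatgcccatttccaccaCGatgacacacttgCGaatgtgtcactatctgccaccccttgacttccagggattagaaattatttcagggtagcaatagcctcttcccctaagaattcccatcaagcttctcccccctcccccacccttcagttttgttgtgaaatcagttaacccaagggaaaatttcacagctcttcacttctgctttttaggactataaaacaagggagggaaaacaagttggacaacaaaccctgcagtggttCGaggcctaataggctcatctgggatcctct
Pycard, chr7:127993818-127994117, minus strand: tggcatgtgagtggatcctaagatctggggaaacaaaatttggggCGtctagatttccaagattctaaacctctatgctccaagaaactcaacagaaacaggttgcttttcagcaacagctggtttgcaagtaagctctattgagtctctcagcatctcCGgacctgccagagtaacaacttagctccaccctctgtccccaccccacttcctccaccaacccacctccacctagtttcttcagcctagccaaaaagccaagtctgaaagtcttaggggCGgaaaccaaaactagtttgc

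The windows differ in base composition. That of Nek7 holds 23 CpG dinucleotides and that of Ninj1 holds 37, against a median of 7 over 32851 such windows. Of all windows 78.5% hold fewer than that of Nek7 and 94.4% fewer than that of Ninj1. The windows of Il1b, Pycard and Casp1 hold 3 each, Il18 1, Aim2 and Casp4 5, and the 2 windows of Nlrp3 4 and 5. Like that of Nek7, the Aim2 window (173420354 to 173420653) lies inside the gene as GENCODE bounds it. So does the Nlrp3 window with 5 (59542436 to 59542735). On either strand, TATAAA occurs in the windows of Il1b and Il18 (13.6% of all windows have it), and AGGAAG, a core bound by ETS factors, in those of Aim2, Pycard, Casp1 and Nlrp3 (35.4% of all). The kappaB consensus, the motif bound by NF-kB, occurs in the windows of Casp4 and in 1 of the 2 of Nlrp3 (6.93% of all). A window was held for 9 of the 10 members, and these matches describe letters only.

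The members spanned a wide range of levels. Ninj1 was highest at a mean of 146.5 FPKM over the 8 libraries (109.0 to 171.7), followed by Gsdmd at 25.4 FPKM (22.8 to 28.0). Nek7, Aim2 and Casp1 came next at 7.72, 7.30 and 7.06 FPKM, close to the median of 7.74 FPKM over the genes in the fit, and their ranges overlapped. Il18 (4.46 FPKM), Casp4 (3.57 FPKM) and Nlrp3 (2.60 FPKM) followed with overlapping neighbours. Il1b lay below them at 0.549 FPKM (0.306 to 0.817), and Pycard at the bottom at 0.0029 FPKM. The steps Ninj1 to Gsdmd, Gsdmd to Nek7, Casp1 to Il18, Nlrp3 to Il1b and Il1b to Pycard separated neighbours whose ranges over libraries did not overlap.

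**Figure D1:**
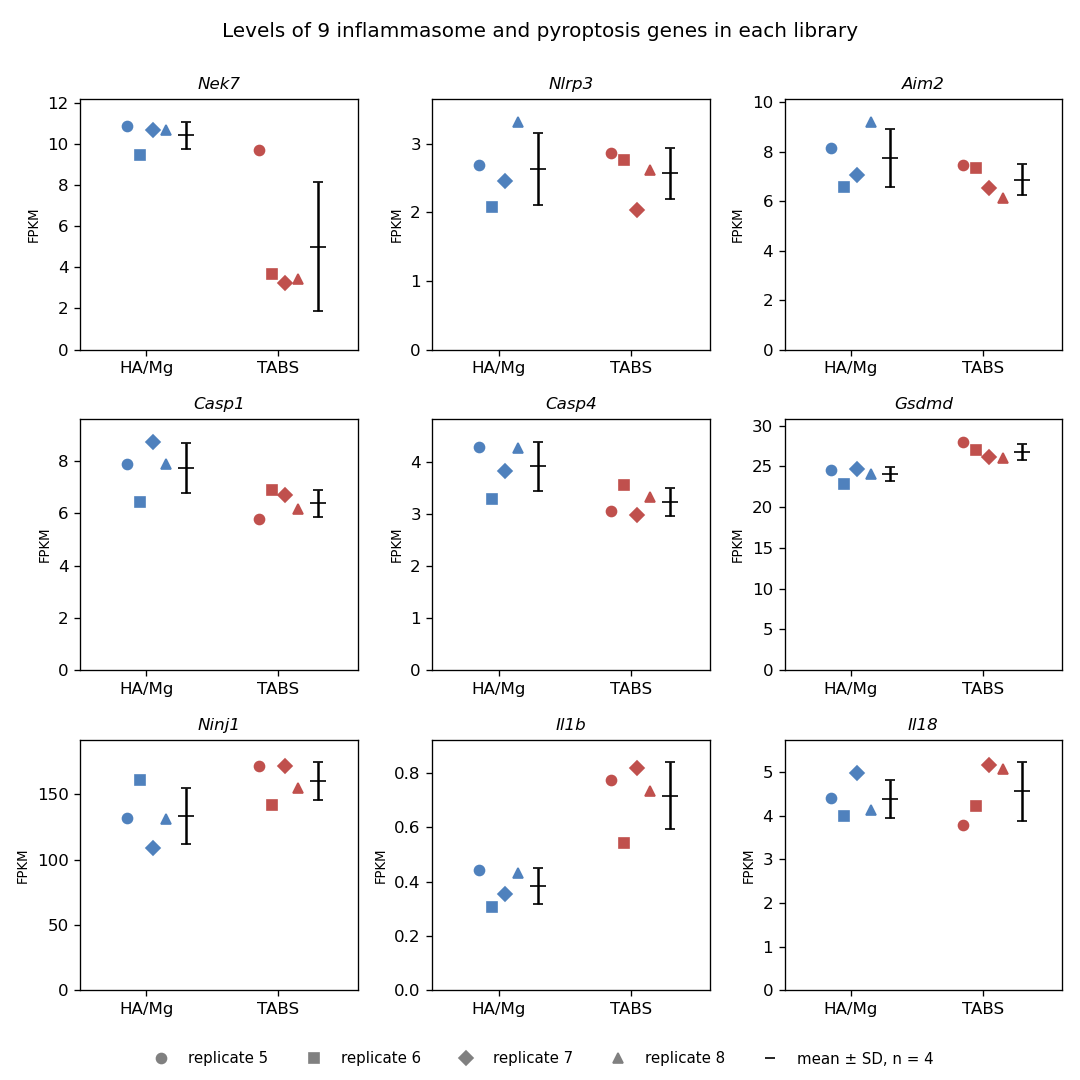
FPKM (vertical axes, each starting at 0) of the 9 members other than Pycard in each HA/Mg (blue) and TABS (red) library, with marker shapes for replicates 5 to 8 and bars for the mean ± SD (n = 4). Nek7 stands at 9.73 FPKM in TABS replicate 5 and at 3.22 to 3.66 FPKM in the other TABS libraries, and the groups do not overlap for Gsdmd and Il1b.

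Nek7 (ENSMUSG00000026393, GRCm38 chromosome 1 from 138482875 to 138620141, minus strand) was the member with the largest difference, and the TABS libraries were split over it. The HA/Mg libraries held 10.9, 9.46, 10.7 and 10.7 FPKM in replicates 5 to 8. The TABS libraries held 9.73, 3.66, 3.22 and 3.44 FPKM in the same order. TABS replicate 5 thus lay within the HA/Mg range, and TABS replicates 6 to 8 lay well below every other library. The group means were 5.01 ± 3.15 FPKM with TABS and 10.4 ± 0.661 FPKM with HA/Mg (SD, n = 4 each), 2.08-fold lower with TABS, and the coefficient of variation was 62.9% with TABS against 6.33% with HA/Mg. Without TABS replicate 5 the TABS mean was 3.44 ± 0.222 FPKM (n = 3), 3.04-fold lower than HA/Mg with no overlap. Without HA/Mg replicate 6 the difference was 2.15-fold and the groups again did not overlap. Only these libraries overlapped, so leaving out either had to part the groups. On the log2(FPKM + 1) scale the difference, TABS minus HA/Mg, was -1.05 ± 0.26 (SE of the model). It was -0.83 once the trends with transcript length and GC content had been taken out of every library. The table gives 1 value per gene, while the annotation holds 4 Nek7 transcripts of 2648 to 5258 bases. Which of them the reads came from is not shown by these values, and their part in the split was not tested. The 118 exonic bases that Nek7 shares with a gene on the opposite strand belong to Gm28501, which was at 0 FPKM.

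Few genes shared this split. Fen1, a flap endonuclease of DNA replication and repair, and Nek7 were the 2 of 10161 genes for which the lowest other library was at least 2 times TABS replicates 6, 7 and 8 alike, a pattern looked for after the values of Nek7 had been seen. With TABS, Fen1 stood at 24.8 FPKM in replicate 5 and at 6.23, 6.60 and 6.81 FPKM in the other 3, and with HA/Mg at 22.7 to 31.9 FPKM. The genes most like Nek7 were those with the smallest mean absolute distance between log2(FPKM + 1) values over the 8 libraries, each gene centred on its own mean. They were Pcyt1a and Fen1 (0.26 each), Nrros (0.30), Fkbp5 (0.32) and Cept1 (0.33), against 0.61 for the median gene. Pcyt1a, an enzyme of phosphatidylcholine synthesis, was 6.21 FPKM in TABS replicate 5 and 2.30 to 4.33 FPKM in the other TABS libraries, and 5.02 to 6.37 FPKM with HA/Mg. Fkbp5, a co-chaperone of steroid receptors, split otherwise, with TABS replicates 5 and 6 at 11.4 and 10.6 FPKM and TABS replicates 7 and 8 at 5.82 and 6.22 FPKM, against 12.1 to 12.5 FPKM with HA/Mg.

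None of the other NEK kinases met that pattern. Of 10 listed relatives 6 entered the fit, of which 2 fell with TABS, 4 did not pass and 0 rose. Over all genes in the fit 13.1% were called lower and 5.07% higher, and nothing is read from the count. Nek2, a centrosomal kinase of mitosis, fell from 17.5 ± 1.64 to 13.6 ± 0.789 FPKM (n = 4 each), with a log2 difference of -0.34 ± 0.07 (limma adjusted p = 0.0180). With HA/Mg replicate 5, 7 or 8 left out its adjusted p was 0.0520 to 0.0619 and the call ended. Nek1, a kinase linked to cilia and DNA repair, fell from 3.43 to 2.54 FPKM (limma adjusted p = 0.0490). Leaving out any library but HA/Mg replicate 6 ended its call (adjusted p of 0.0501 to 0.130), and its log2 difference went from -0.32 to -0.11 when length and GC trends were removed. Nek9, which activates NEK6 and NEK7 in mitosis, was at 59.7 ± 4.64 FPKM with TABS and 62.8 ± 1.15 FPKM with HA/Mg (adjusted p = 0.357). Nek6, the kinase closest to NEK7 in sequence, was at 9.58 ± 0.902 and 8.21 ± 0.908 FPKM (adjusted p = 0.124), a less certain value because 405 of its exonic bases also belong to Psmb7 on the opposite strand, at 74.7 FPKM. Nek6 was 10.1, 9.32, 10.5 and 8.44 FPKM across TABS replicates 5 to 8, with no gap after the first.

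**Figure D2:**
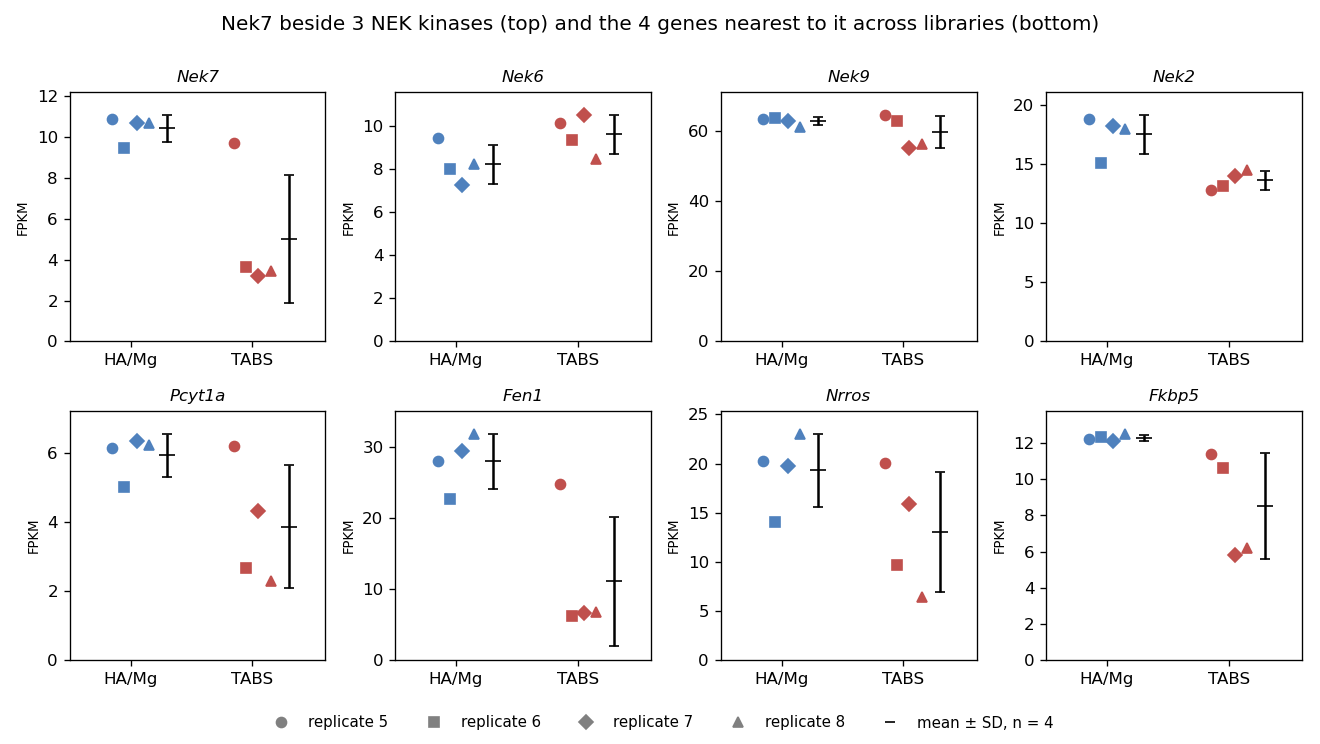
FPKM (vertical axes, each starting at 0) in each HA/Mg (blue) and TABS (red) library for Nek7, Nek6, Nek9 and Nek2 (top) and for Pcyt1a, Fen1, Nrros and Fkbp5, which lie nearest to Nek7 over the 8 libraries (bottom), with the mean ± SD (n = 4). TABS replicate 5 (circle) sits with the HA/Mg libraries for Nek7 and Fen1, far above the other TABS libraries. It also lies within the HA/Mg range for Pcyt1a and Nrros, with a smaller gap to the other TABS libraries. No gap like that of Nek7 and Fen1 is seen for Nek6, Nek9 or Nek2.

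Among the sensors, Nlrp3 (chromosome 11 from 59541568 to 59566956, plus strand) responds to potassium loss and many danger signals, and its transcription is the step usually called priming. In the order of the replicates it was 2.86, 2.76, 2.03 and 2.61 FPKM with TABS and 2.69, 2.07, 2.45 and 3.32 FPKM with HA/Mg. The groups lay over each other, with a log2 difference of -0.02 ± 0.12 and group means of 2.56 ± 0.373 and 2.63 ± 0.522 FPKM. Aim2 (chromosome 1 from 173350879 to 173466040, plus strand) senses double-stranded DNA in the cytosol. It was 7.47, 7.32, 6.54 and 6.14 FPKM with TABS and 8.13, 6.55, 7.07 and 9.21 FPKM with HA/Mg. Its ranges overlapped with all libraries and without HA/Mg replicate 6, and its log2 difference of -0.15 ± 0.10 became 0.01 when length and GC trends were removed.

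The adaptor gene Pycard (chromosome 7 from 127989708 to 127993867, minus strand) was listed at 0 in 6 of the 8 libraries. The remaining values were 0.0117 FPKM in TABS replicate 7 and 0.0114 FPKM in HA/Mg replicate 6. RAW264.7 cells are known as a line without ASC, and in these libraries the adaptor was near 0 with both materials while the sensors, the caspases and gasdermin D were measured. No fold is given for it.

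Both inflammatory caspase genes, neighbours on chromosome 9, had lower means with TABS but overlapping groups. Casp1 (5298517 to 5307265, plus strand) was 5.79, 6.89, 6.70 and 6.16 FPKM with TABS and 7.88, 6.42, 8.74 and 7.88 FPKM with HA/Mg. The means were 6.38 ± 0.504 and 7.73 ± 0.962 FPKM, 1.21-fold lower with TABS. Casp4 (5308828 to 5336783, plus strand) was 3.05, 3.56, 2.98 and 3.32 FPKM with TABS and 4.29, 3.29, 3.82 and 4.26 FPKM with HA/Mg, 1.21-fold lower as well. In both genes HA/Mg replicate 6 was the library that fell into the TABS range. Without it both differences were 1.28-fold, and the groups did not overlap because the library inside the TABS range had been left out. The log2 differences of -0.24 ± 0.09 (Casp1) and -0.21 ± 0.08 (Casp4) became -0.09 and -0.05 when length and GC trends were removed.

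The 2 genes of membrane rupture lay higher with TABS. Gsdmd (ENSMUSG00000022575, chromosome 15 from 75862327 to 75867408, plus strand), the pore former, was 28.0, 27.0, 26.1 and 26.0 FPKM with TABS and 24.5, 22.8, 24.7 and 24.1 FPKM with HA/Mg. Every TABS library lay above every HA/Mg library, but the shift was small, 1.12-fold, with means of 26.8 ± 0.940 and 24 ± 0.863 FPKM. Its log2 difference of 0.15 ± 0.04 became 0.08 when length and GC trends were removed. Ninj1 (chromosome 13 from 49187485 to 49196244, plus strand) was 171.7, 142.0, 171.3 and 154.5 FPKM with TABS and 131.7, 160.9, 109.0 and 131.0 FPKM with HA/Mg. HA/Mg replicate 6 was again the library inside the TABS range, this time as the highest of its group. With all libraries Ninj1 was 1.20-fold higher with TABS (159.9 ± 14.4 against 133.1 ± 21.3 FPKM). Without HA/Mg replicate 6 it was 1.29-fold higher, with no overlap because the library inside the TABS range had been left out. Its log2 difference of 0.27 ± 0.11 became 0.15 when length and GC trends were removed and 0.18 without HA/Mg replicate 7.

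Il1b (ENSMUSG00000027398, chromosome 2 from 129364570 to 129371139, minus strand), the classical inflammasome cytokine, was low in all libraries but separated the groups. It was 0.773, 0.540, 0.817 and 0.733 FPKM in TABS replicates 5 to 8. In HA/Mg replicates 5 to 8 it was 0.441, 0.306, 0.353 and 0.433 FPKM. The lowest TABS library thus lay above the highest HA/Mg library, and the means of 0.716 ± 0.122 and 0.383 ± 0.065 FPKM differed 1.87-fold (1.82-fold without TABS replicate 5 and 1.75-fold without HA/Mg replicate 6). All 8 values were below 1 FPKM, so Il1b did not enter the fit. Il18 (chromosome 9 from 50554827 to 50581840, plus strand), which cells usually hold as a ready precursor, was 3.78, 4.21, 5.15 and 5.06 FPKM with TABS and 4.39, 4, 4.98 and 4.13 FPKM with HA/Mg. Its groups overlapped and the means of 4.55 and 4.37 FPKM differed by less than either SD.

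The gene beside Il1b behaved more evenly. Il1a (chromosome 2 from 129299610 to 129309972, minus strand), which encodes the alarmin IL-1α, was 0.924, 0.918, 0.924 and 0.884 FPKM with TABS and 0.490, 0.484, 0.447 and 0.473 FPKM with HA/Mg, 1.93-fold higher with TABS. It is singled out after its values were seen. It too was below the filter and did not enter the fit. In the alternative with the filter at 0.5 FPKM it was tested and passed (limma adjusted p = 0.00935), a p for a gene picked by its values. Il1rn (chromosome 2 from 24336853 to 24351494, plus strand), which encodes the receptor antagonist that blocks both ligands, was 5.17, 2.62, 3.56 and 2.06 FPKM with TABS and 2.09, 1.5, 1.44 and 2.24 FPKM with HA/Mg. It was 1.84-fold higher on the means but overlapped and did not pass (adjusted p = 0.0691).

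**Figure D3:**
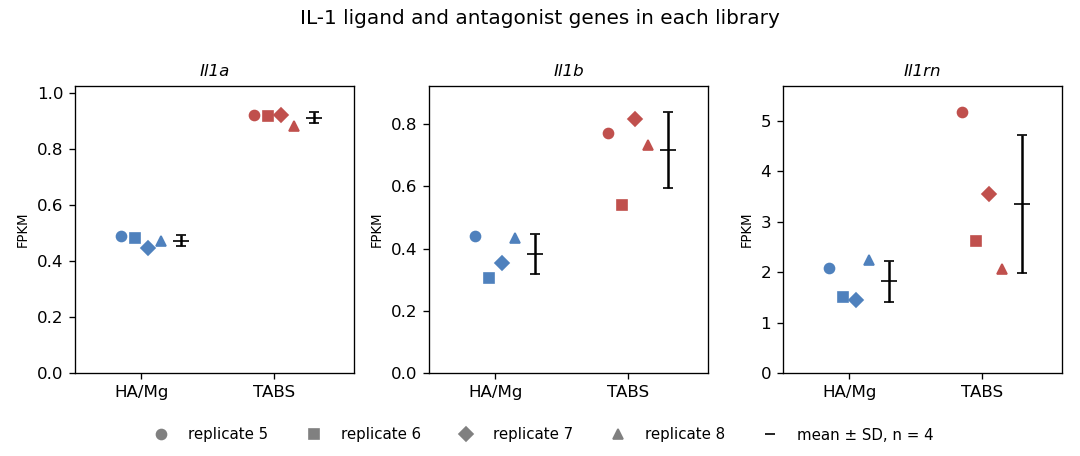
FPKM (vertical axes, each starting at 0) of Il1a, Il1b and Il1rn in each HA/Mg (blue) and TABS (red) library, with the mean ± SD (n = 4). The groups do not overlap for Il1a and Il1b, while TABS replicate 8 of Il1rn (2.06 FPKM) lies below HA/Mg replicates 5 and 8 (2.09 and 2.24 FPKM).

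Of the 10 members, 8 reached 1 FPKM in at least 4 libraries and entered the fit over 10161 genes, while Il1b and Pycard did not. By the call rule of that fit (limma, adjusted p under 0.05) Nek7 counted as lower and Gsdmd as higher, and 6 as not called, which is no test of them because they were chosen with this comparison in view. Over all genes in the fit 18.1% were called, 5.07% higher and 13.1% lower, and the members' count is given beside these shares without reading anything from it. Groups were fully apart for 1 of the 8 (Gsdmd), beside 23.1% of all genes in the fit. Over 21 alternative settings Nek7 met the call rule in 11 and Gsdmd in 7. Casp1, Casp4 and Ninj1 met it in 2 each, with array weights and without HA/Mg replicate 6. Nlrp3, Il18 and Aim2 met it in 0. Il1b entered only 2 of the alternatives, with no filter and with the filter at 0.5 FPKM, and met the rule in these 2. For these members too this is no test. Nek7 met it when either TABS replicate 5 or HA/Mg replicate 6 was left out, but not when any other single library was. Nor did it with low genes kept in the fit, with the replicate block or with length and GC trends removed. Gsdmd met the rule with all 8 libraries but with none of the 8 left out in turn. It also missed it in the settings just named for Nek7, with rescaling to equal sums and with no mean-variance trend. For 8 of the 9 measured members (all but Pycard, and with Ninj1 as the exception) HA/Mg replicate 6 was the lowest HA/Mg library. It was so for 50.1% of all genes in the fit, and nothing is read from the members' count. GC content of the longest transcript was lowest in Casp4 (38.1%), Nek7 (40.4%), Casp1 (41.1%) and Aim2 (42.8%), which had lower mean log2 values with TABS, and highest in Gsdmd (54.4%) and Ninj1 (59.4%), which had higher ones. Between them Il18 (45.1%) and Il1b (46.3%) had positive differences and Nlrp3 (51.0%) a difference of -0.02, so the sign did not follow GC content throughout. The part of GC content was not tested beyond the removal of its trend.

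**Figure D4:**
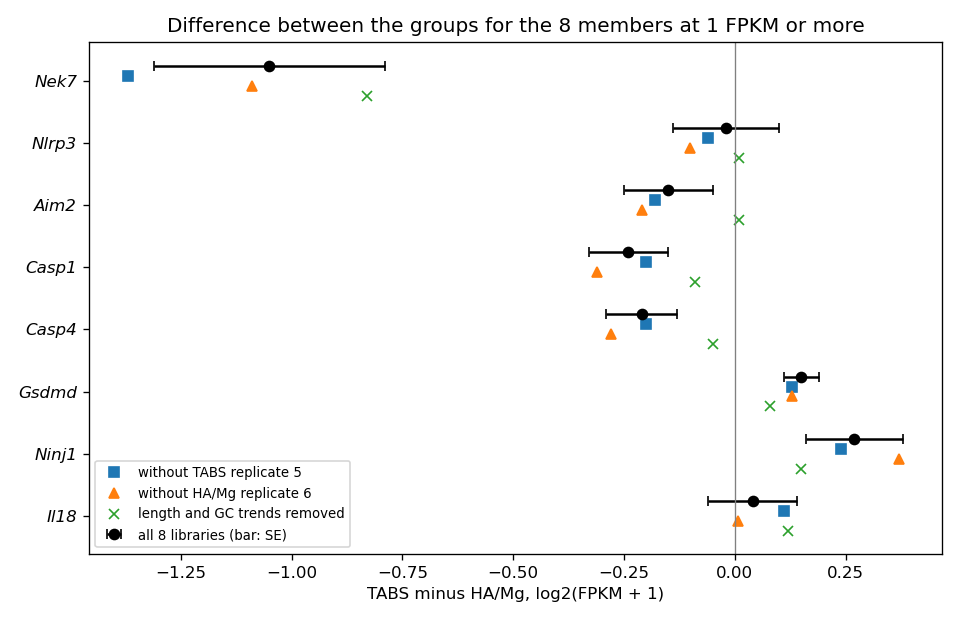
TABS minus HA/Mg difference of mean log2(FPKM + 1) values (horizontal axis) for the 8 members in the fit, with all 8 libraries (black, bar for the SE), without TABS replicate 5 (squares), without HA/Mg replicate 6 (triangles) and after removal of length and GC trends (crosses). Nek7 stays between -1.37 and -0.83 in these, and the crosses of Casp1 (-0.09) and Casp4 (-0.05) lie nearer to 0 than their other points.

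The rest of the pathway was read from lists by role, 82 genes with the NEK family included, of which 57 entered the fit. Of these 1 rose and 6 fell with TABS and 50 did not pass, beside 5.07% of all genes rising and 13.1% falling. The counts of each list below stand beside the same shares. The median log2 difference of the pathway genes was -0.04, as for all genes in the fit (-0.04). The count of called genes went from 7 to 2 without HA/Mg replicate 5, 7 or 8, to 3 without TABS replicate 5, to 4 without TABS replicate 6 or 7, and to 12 without HA/Mg replicate 6. The split turned to 2 higher and 1 lower after removal of length and GC trends, and was 2 and 2 when low genes were kept in the fit. The calls of Ddx3x, Casp8, Vps4b and Nek1, described under their lists, ended in both of these settings, those of Vps4b and Nek1 also with the filter at 0.5 FPKM (adjusted p = 0.0525 and 0.0530), and that of Nek1 with a pseudocount of 0.1 (adjusted p = 0.0504).

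Among 12 other sensors 6 entered the fit, and 1 rose. Zbp1, a sensor of Z-form nucleic acids that can start necroptosis and pyroptosis, rose from 1.65 ± 0.159 to 2.92 ± 0.350 FPKM (log2 difference 0.56 ± 0.08, limma adjusted p = 0.00851), with no overlap between groups. It kept its call without any 1 library. Naip2, a receptor for bacterial secretion-system proteins whose reads may be shared with its close copies, was at 6.81 ± 1.16 against 8.39 ± 1.35 FPKM (adjusted p = 0.179). It passed in 2 of 21 alternatives, with array weights (limma adjusted p = 0.0498) and without HA/Mg replicate 6 (0.0382). Ifi204, a DNA-binding relative of Aim2, was at 2.38 against 2.28 FPKM (adjusted p = 0.785). Mefv, which encodes pyrin and was picked after its values were seen, was listed at 0 throughout.

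Of 19 genes of ion flux and NLRP3 regulation 16 entered the fit, 1 fell and 0 rose, with a median log2 difference of 0.04. Ddx3x, an RNA helicase that can drive NLRP3 assembly or stress granules, fell from 16 ± 2.97 to 10.7 ± 1.26 FPKM (limma adjusted p = 0.0285). HA/Mg replicate 6 at 11.7 FPKM lay among the TABS libraries (9.33 to 11.8 FPKM), and the call ended on leaving out HA/Mg replicate 5, 7 or 8, or TABS replicate 5 or 7 (adjusted p of 0.0693 to 0.0844). It also ended when low genes were kept in the fit (adjusted p = 0.0881) and on removal of length and GC trends (adjusted p = 0.0728), which moved its log2 difference from -0.53 to -0.32. Txnip, a redox-sensitive protein that binds NLRP3, was at 98 ± 8.80 against 116.1 ± 9.47 FPKM and did not pass (adjusted p = 0.0542), though it did without TABS replicate 7 (0.0409), with quantile normalization (0.0173), with rescaling to equal sums (0.0187) and with array weights (0.0173). Over its alternatives the adjusted p ran from 0.0173 to 0.356. Clic1, a chloride channel protein, was at 224.4 against 217.5 FPKM (adjusted p = 0.750). P2rx7, the ATP-gated channel upstream of potassium loss, was at 2.58 ± 0.352 against 2.48 ± 0.192 FPKM and did not pass (adjusted p = 0.773), and was picked outside the naming rule after its values were seen.

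Of 12 other caspase, gasdermin and necroptosis genes 8 entered the fit, 2 fell and 0 rose. Casp8, the initiator that links death receptors to apoptosis and pyroptosis, fell from 11.6 ± 1.22 to 9.35 ± 0.423 FPKM (limma adjusted p = 0.0361) and kept its call with HA/Mg replicate 6 left out but with no other library left out (adjusted p of 0.0519 to 0.102). Its log2 difference went from -0.28 to -0.18 when length and GC trends were removed.

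Of 18 genes of the IL-1 family, its receptors and their signalling 11 entered the fit, and limma called 0 of these changed, with 3 at an unadjusted p under 0.05. Il1a entered with the filter at 0.5 FPKM and was called higher there, as given above. Il1rn, described above, had the largest difference of the 11. The receptor genes Il1r1 and Il1r2, picked in the same way, were at or near 0 in all libraries. Myd88, the adaptor of IL-1 and toll-like receptors, was at 25.3 ± 2.73 against 24.5 ± 0.607 FPKM (adjusted p = 0.704). Irak3, a kinase-like brake on that pathway, was at 20.2 ± 3.26 against 21.9 ± 1.26 FPKM (adjusted p = 0.422). Both values are less certain because of genes on the opposite strand. Myd88 shares 290 exonic bases with Acaa1a (20.2 FPKM), and Irak3 shares 192 with Tmbim4 (14.4 FPKM).

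Of 11 genes of inhibition and membrane repair 10 entered the fit, 1 fell and 0 rose. Vps4b, an ATPase of the ESCRT machinery that reseals gasdermin pores, fell from 7.23 ± 0.456 to 6 ± 0.513 FPKM (limma adjusted p = 0.0480). The call ended without any 1 library other than HA/Mg replicate 6 (adjusted p of 0.0611 to 0.127), and the log2 difference went from -0.23 to -0.03 when length and GC trends were removed. The ESCRT-III genes Chmp4b (128.9 ± 6.08 against 118.4 ± 4.59 FPKM, adjusted p = 0.0974) and Chmp2a (91.7 against 88.5 FPKM, adjusted p = 0.623) did not pass. Chmp4b did in 2 of 21 alternatives, with array weights (limma adjusted p = 0.0204) and without HA/Mg replicate 6 (0.0411).

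**Figure D5:**
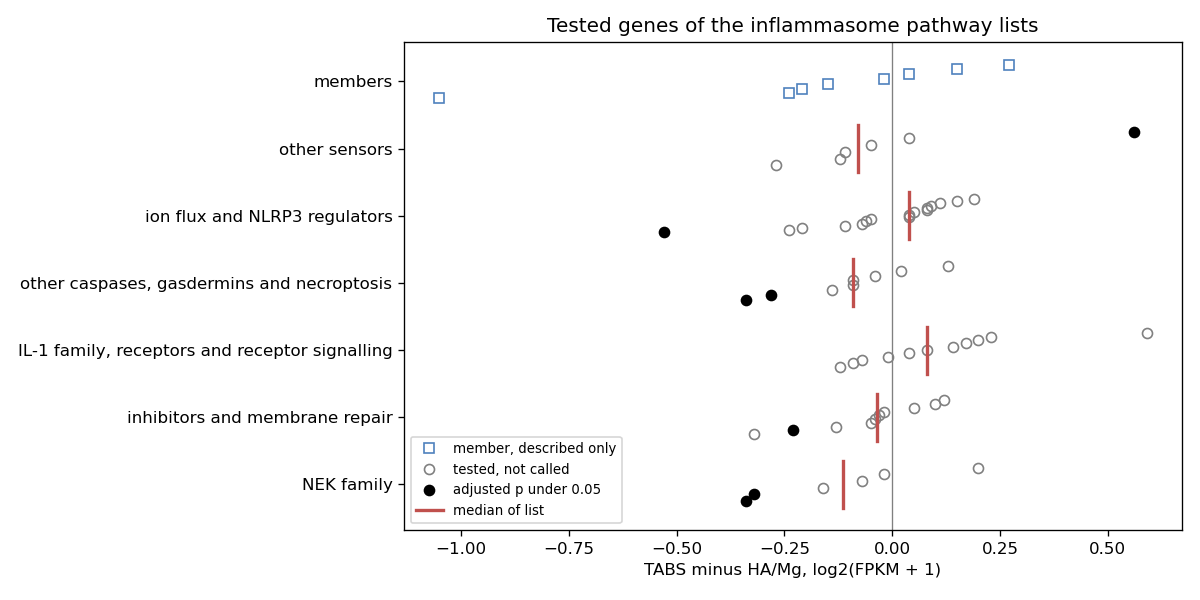
TABS minus HA/Mg difference of mean log2(FPKM + 1) values (horizontal axis) for each tested gene of 6 pathway lists, filled where the limma adjusted p was under 0.05, with the list median in red, and for the 8 members in the fit (blue squares, no test). Zbp1 at 0.56 is the filled point to the right of 0, and the 6 others lie between -0.53 and -0.23.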

How the data were processed

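RNA was taken up in TRIzol and sequenced as read pairs from NEBNext Ultra libraries on a NovaSeq, per the labels' protocols. The submitters' processing notes name fastp, STAR and DESeq2 with GRCm38. Versions, the FPKM tool, the annotation and strand use were not given in the sources used here. FPKM values were deposited by the authors for 55335 genes, of which 55154 matched GENCODE M21 (GRCm38), the source of symbols, positions, lengths and GC content. Only 35.4% to 38.5% of low values were whole steps within 0.05, so no reads were recovered and the depth is not known.

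Differences were fitted with limma 3.58.1 in R 4.3.3 on log2(FPKM + 1), which understates changes of low genes, with a mean-variance trend, over the 10161 genes that reached 1 FPKM in 4 or more of the 8 libraries, and p-values were two-sided with Benjamini-Hochberg adjustment over all of them. The steps were tested on simulated data with independent noise for each gene and no shifts of whole libraries. Of 50 genes changed at each log2 size, 38% were recovered at 0.3, 72% at 0.5, 94% at 1 and 100% at 2. Small differences can thus fail to pass. Length and GC trends were natural splines with 4 degrees of freedom per library. Members and lists were chosen with earlier results of these data known. Named pathway genes were up to 5 called genes per list by size of change, and the 2 highest in FPKM where fewer than 2 were called, with Nek6, Nek9 and the 5 genes nearest to Nek7. Other pseudocounts, filters, scalings and weights, the replicate block and leaving out each library were tried. One result covered by the naming rule is not reported here.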

Additional observations from a re-analysis of the deposited data

Results flagged for a closer look

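2 of the 18 groups of 4 values examined (9 members in 2 groups) held a library farther from the rest than Dixon's criterion allows, where chance flags about 1 in 20 groups. Both concerned Nek7. TABS replicate 5, at 9.73 FPKM, was set off from the other TABS libraries by 0.932 of the group's range. HA/Mg replicate 6, at 9.46 FPKM, was set off below the other HA/Mg libraries by 0.854 of a much narrower range.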

How the results depend on the processing

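Over 21 alternatives the log2 difference of Nek7 ranged from -1.37 to -0.83, Gsdmd from 0.08 to 0.21, Casp1 from -0.31 to -0.09, Casp4 from -0.28 to -0.05 and Ninj1 from 0.15 to 0.37. Nlrp3 (-0.10 to 0.06), Il18 (-0.02 to 0.12) and Aim2 (-0.21 to 0.01) took both signs. The 1842 called genes became 808 and the 7 called pathway genes 4 with no filter, 3532 and 13 with array weights, and 647 (263 higher, 384 lower, 40.6% higher) and 3 with length and GC trends removed. Pathway calls were 11 (4 higher, 7 lower, or 36.4% higher against 14.3%) with quantile normalization. Median-of-ratios scaling gave 2 higher and 6 lower pathway genes (25%). Leaving out 1 library gave 429 to 3320 called genes and 2 to 12 pathway genes. Over all genes the higher share was 28.0% as deposited, 43.4% with median-of-ratios scaling (806 higher, 1050 lower), 40.3% with quantile normalization (806 higher, 1192 lower) and 13.9% after rescaling to equal sums (251 higher, 1549 lower).

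With the replicate block limma called 0 genes and 0 pathway genes (smallest adjusted p 0.0589), with 2987 and 10 at an unadjusted p under 0.05, and also 0 and 0 after removal of length and GC trends (2223 and 13 unadjusted). The deviations of same-numbered libraries had correlations of 0.0106, -0.275, -0.16 and 0.128 for replicates 5 to 8. Only TABS replicate 8 correlated best with its own number. The labels do not say how the replicates were numbered, and the groups are small. These correlations thus cannot decide whether same-numbered libraries shared a culture or batch, which was not tested.

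Some uncalled genes changed sign. Clic1 was at -0.05 with quantile normalization, -0.01 with equal sums and -0.05 with length and GC trends removed, with or without the block, and -0.03 to 0.09 with 1 library left out. Myd88 was at -0.0067 with equal sums, -1.4e-05 with those trends removed, and -0.0081 to 0.11 with 1 library left out. Chmp2a was at -0.0011 and -0.03 in the same settings and -0.01 to 0.08 with 1 library left out, and Ifi204 was at -0.03 to 0.08. The causes were not tested. The depth limits what low genes such as Il1b and Pycard can show.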
